A study of Homo sapiens with 9 samples.

Results

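The complement gene C7 and a group of complement proteases and regulators were examined in LAN5 cells, an established human neuroblastoma line. Members were the rows of the deposited expression table whose gene symbol was C7, C3, C1S, C1R, CFI, CD46, CD55, CD59 or SERPING1. The group was chosen by the CPM of C7, which was much higher in both knockdowns than in control cells, so those C7 differences are given as a description, without a test. The other symbols were named as complement genes. Of the 9 names, 7 were matched among the 25084 genes of the table, and C3 and CFI were not analysed here.

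Complement is a set of blood and membrane proteins that tag and puncture cells and microbes. In the classical pathway the proteases C1r and C1s cleave further components, the cascade converges on C3, and the terminal components C5b, C6, C7, C8 and C9 assemble into a pore in the target membrane. Cells protect themselves with membrane regulators: CD46 and CD55 act on the C3-cleaving enzymes, and CD59 blocks the last step of the pore. SERPING1, the C1 inhibitor, and CFI, a protease that inactivates C3b, act in the fluid phase.

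The cells received by nucleofection 1 of 3 reagents: the control siCTR, siMYCN (siMYCN_2 in the labels) directed at MYCN, or siHAND2 (siHAND2_3 in the labels) directed at HAND2, and RNA was taken after 72 h in growth medium with fetal calf serum. Each of the 3 groups had 3 libraries of total RNA. MYCN and HAND2 encode transcription factors of the basic helix-loop-helix kind. A single siRNA was used for each target in 1 cell line, and the labels do not say whether the replicates came from separate cultures, so p-values measure the spread between these libraries. Values are CPM, the reads of a gene scaled to the assigned reads of its library, without scaling for transcript length. In a mixture of cells, fewer cells of a type and less RNA per cell cannot be told apart.

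Judged by the spacing of low CPM values, which shows what 1 read is worth, 1 CPM stood for 21.1 to 32.7 reads in the 9 libraries and carried a counting error of 17.5% to 21.8%. Within each group, log2(CPM + 1) correlated across genes at 0.994 to 0.998. MYCN averaged 1842 ± 54.2 CPM in control libraries, 1289 ± 47.0 CPM after siMYCN and 914 ± 48.4 CPM after siHAND2 (SD, n = 3 each). HAND2 averaged 501 ± 13.7, 571 ± 15.9 and 272 ± 7.65 CPM in the same order. Each library thus carried a lower level of its own target, and the siHAND2 libraries also had the lowest MYCN. All 10 noradrenergic neuroblastoma markers examined passed the filter on low values, with summed levels of 1645 to 1780 CPM in siCTR, 2190 to 2296 CPM in siMYCN and 2051 to 2289 CPM in siHAND2. Of these markers 8 rose in siMYCN, where 24.5% of all tested genes rose. In siHAND2 4 rose and 2 fell (TH and DBH), where 18.1% of all tested genes rose and 11.8% fell. Macrophage markers summed to 0.539 to 0.886 CPM, endothelial markers to 0.979 to 2.26 CPM and Schwann cell markers to 2.06 to 3.34 CPM per library.

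C7 lies on the plus strand of chromosome 5, 40909497 to 40984643 (GRCh38, as the table gives it), with no other row of the table overlapping it. Its RefSeq promoter is shown because MYCN and HAND2 belong to the protein class that binds E-boxes, the letters CANNTG. The sequence below covers 250 to 11 bases before the start of transcription (GRCh38.p14, chr5:40909247-40909486, plus strand), with capitals marking each CANNTG match.
C7 promoter: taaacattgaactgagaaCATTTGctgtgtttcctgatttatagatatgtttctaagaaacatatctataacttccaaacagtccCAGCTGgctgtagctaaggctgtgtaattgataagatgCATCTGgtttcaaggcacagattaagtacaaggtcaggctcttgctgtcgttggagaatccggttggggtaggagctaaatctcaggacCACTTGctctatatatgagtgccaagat
The window held 4 matches to CANNTG. The first, CATTTG, began 232 bases before the start and the next, CAGCTG, 165 bases before it. The third was CATCTG at 127 bases, and CACTTG followed at 38 bases before the start. Over 35116 RefSeq promoter windows of the same 240 bases the median was 1 match, and 3.01% had at least 4. CATCTG, an E-box form known for HAND factors and here also one of the 4 CANNTG matches, occurred in 11.8% of all windows. CACGTG, the form preferred by MYC proteins, was not among the letters of the C7 window and occurred in 6.01% of all windows. The STAT-type motif TTCNNNGAA had 1 match in C7 (TTCTAAGAA, 200 bases before the start), against 6.40% of all windows with a match. Both strands were searched. RefSeq gave 11 start windows for 6 of the 9 named genes. CANNTG matched in 5 of these (60.6% of all windows), CATCTG in 2, TTCNNNGAA in 4, CACGTG in 0, the NF-kB core motif in 3 (18.9% of all windows) and the interferon response element in 0 (2.86%). Windows of 1 gene can overlap, so these are counts of windows and not of sites: the CD46 windows hold the same NF-kB match, and 2 of the CD59 windows the same TTCNNNGAA match. These matches are descriptions of letters and not binding sites.

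C7 encodes the terminal component that anchors the growing pore in the membrane. It measured 5.50, 3.89 and 4.98 CPM in siCTR replicates 1, 2 and 3. The siMYCN libraries had 13.2, 12.1 and 13.6 CPM, and the siHAND2 libraries 24.1, 19.8 and 20.5 CPM. The 3 groups did not overlap: every siMYCN library lay above every siCTR library and below every siHAND2 library. Mean C7 was 4.79 ± 0.821, 13.0 ± 0.750 and 21.4 ± 2.31 CPM (SD, n = 3 each), which is 2.70-fold the siCTR mean in siMYCN and 4.47-fold in siHAND2. On the log2(CPM + 1) scale the differences from siCTR were 1.28 and 1.96 (standard error 0.10 each). Because of the added 1 CPM, this scale understates changes of weakly expressed genes. The reads behind these values numbered 104 to 180 per siCTR library, 316 to 396 per siMYCN library and 496 to 732 per siHAND2 library. By size of rise, C7 ranked 3 among 14495 tested genes in siMYCN and 20 in siHAND2.

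**Figure D1:**
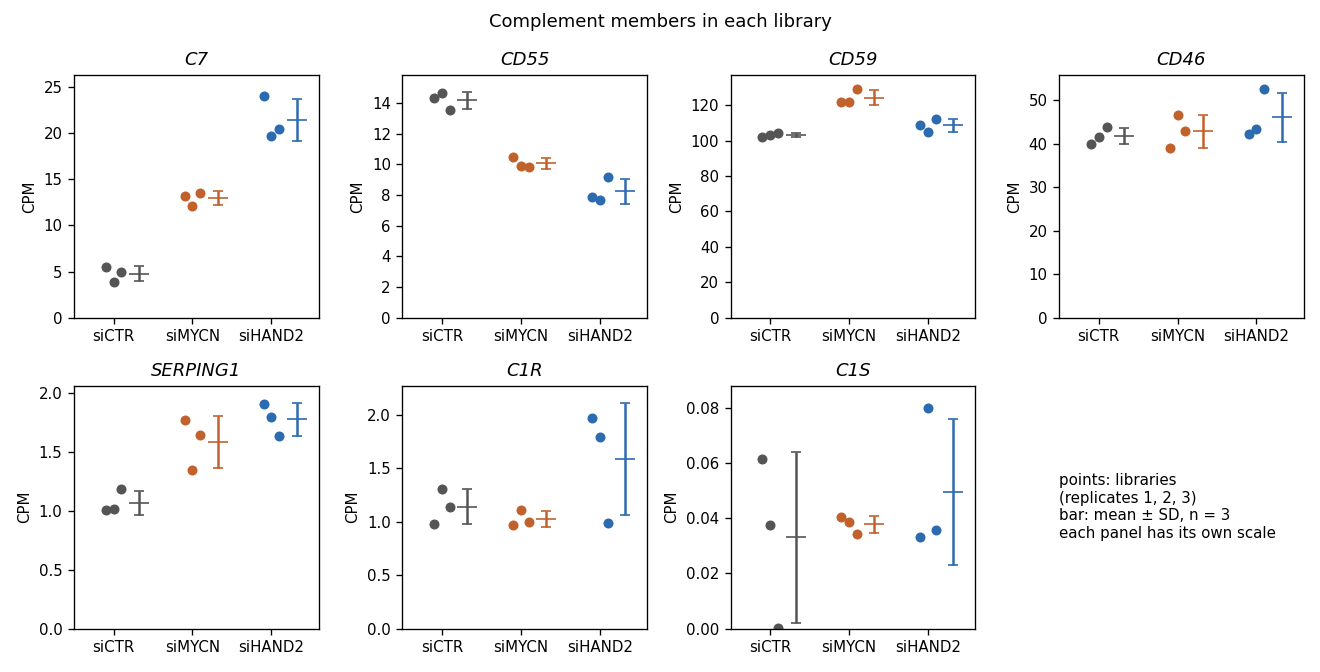
CPM of the 7 matched members (vertical axis, one scale per panel, from 0) in the 3 siRNA groups; points are libraries and bars show mean ± SD, n = 3. C7 rises in steps from 4.79 to 13.0 and 21.4 CPM on average, CD55 steps down from 14.2 to 10.1 and 8.24 CPM, and C1S stays under 0.1 CPM.

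The choice of the group used the rise of C7 in both knockdowns and not the difference between the knockdowns. The siMYCN and siHAND2 values of C7 were still part of that choice, so this difference too is given as a description, without a test. The control libraries take no part in the difference between the knockdowns. They add to the estimate of spread, since all 9 libraries share 1 fit. C7 was 0.68 higher in siHAND2 than in siMYCN on the log2 scale (standard error 0.10), 1.66-fold in mean CPM. The difference was positive in 19 of 19 alternative fits, between 0.56 and 0.74. These fits reuse the libraries of the choice and are no independent support.

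CD55, also called decay-accelerating factor, is anchored in the membrane and breaks up the C3- and C5-cleaving enzymes. Its row spans chromosome 1, 207321532 to 207386804, plus strand. Control libraries had 14.3, 14.6 and 13.6 CPM of CD55. The siMYCN libraries had 10.5, 9.93 and 9.83 CPM, and the siHAND2 libraries 7.86, 7.69 and 9.18 CPM. The groups again did not overlap, in the order opposite to that of C7. Mean CD55 was 14.2 ± 0.550, 10.1 ± 0.343 and 8.24 ± 0.814 CPM (SD, n = 3), so siMYCN had 71.1% and siHAND2 58.1% of the siCTR mean. It fell by 0.45 in siMYCN (standard error 0.08, limma, adjusted p = 0.000279) and by 0.72 in siHAND2 (adjusted p = 2.84e-06). Both calls held in all 19 alternative fits. The siHAND2 libraries were also lower than the siMYCN libraries, by -0.26 (adjusted p = 0.0183). That call was lost without siMYCN replicate 1 (-0.24), siHAND2 replicate 1 (-0.24) or siHAND2 replicate 2 (-0.22), with adjusted p over the alternatives from 0.00360 to 0.0793.

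CD59, or protectin, is a small anchored protein that keeps C9 from completing the pore. It lies on chromosome 11, 33703010 to 33736479, minus strand, and the row AL049629.2 overlaps it on the same strand. CD59 reads came out fractional where those of C7, CD46 and CD55 were whole, and whether reads were shared with the overlapping row was not tested. Control libraries had 102, 103 and 105 CPM of CD59. After siMYCN the values were 122, 122 and 129 CPM, and after siHAND2 they were 109, 105 and 112 CPM. The siMYCN libraries stood above all others, while the lowest siHAND2 library (104.8 CPM) was just above the highest siCTR library (104.5 CPM). Means were 103 ± 1.12, 124 ± 4.36 and 109 ± 3.61 CPM (SD, n = 3). CD59 rose by 0.26 in siMYCN (standard error 0.04, limma, adjusted p = 0.000182), a 1.20-fold change in mean CPM. In siHAND2 the difference was 0.07 (95% interval -0.02 to 0.16, adjusted p = 0.238), which did not pass the test. The direct comparison separated the knockdowns by -0.19 (adjusted p = 0.00298), lower in siHAND2 in 3 of 3 libraries.

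CD46, the membrane cofactor with which CFI cleaves C3b and C4b, lies on chromosome 1, 207752054 to 207795513, plus strand. The row CDCA4P4 overlaps it on the same strand. Control libraries had 40.0, 41.7 and 43.8 CPM of CD46. With siMYCN the level was 39.1, 46.7 and 43.0 CPM, and with siHAND2 it was 42.3, 43.5 and 52.6 CPM. All 3 groups overlapped. The differences from siCTR were 0.033 in siMYCN (95% interval -0.13 to 0.20, limma, adjusted p = 0.778) and 0.13 in siHAND2 (95% interval -0.03 to 0.29, adjusted p = 0.216). The siMYCN value was below 0 after median-ratio rescaling of the libraries (-0.024). CD46 and CD55 lie near each other on chromosome 1, and here one fell in both knockdowns while the other did not pass the test in either.

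**Figure D2:**
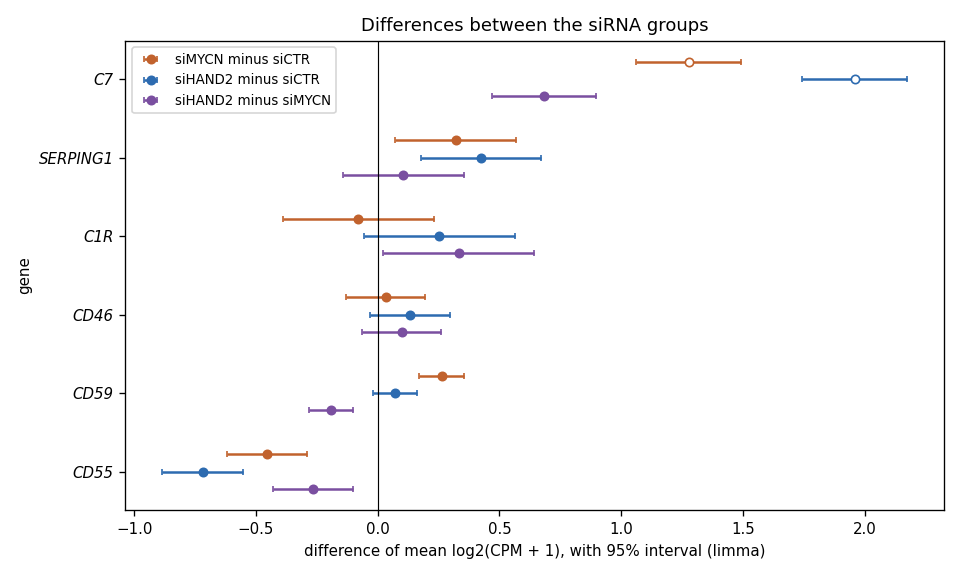
Difference of mean log2(CPM + 1) (horizontal axis) for the 6 tested members, with 95% intervals from limma, in the 3 comparisons; open circles mark the C7 values for which it was chosen. CD55 lies below 0 in all 3 comparisons, CD59 differs from siCTR by 0.26 in siMYCN and 0.07 in siHAND2, and the CD46 intervals include 0.

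SERPING1 encodes the C1 inhibitor, which inactivates C1r and C1s. It lies on chromosome 11, 57597387 to 57614848, plus strand. Its level was low, with 1.01, 1.01 and 1.19 CPM in control libraries. After siMYCN the values were 1.77, 1.34 and 1.64 CPM, and after siHAND2 they were 1.91, 1.79 and 1.63 CPM. Both knockdown groups lay above siCTR and overlapped each other. The means of 1.07 ± 0.102, 1.59 ± 0.221 and 1.78 ± 0.140 CPM (SD, n = 3) rested on 25.0 to 58.0 reads per library. SERPING1 rose by 0.42 in siHAND2 (standard error 0.12, limma, adjusted p = 0.0117), a 1.66-fold change of the mean, and this call held in all 18 alternative fits that kept the gene. In siMYCN it rose by 0.32 (adjusted p = 0.0426), a call near the threshold that was lost in 10 of 18 alternative fits, 5 of which left out 1 library (siCTR replicate 1, siCTR replicate 2, siMYCN replicate 1, siMYCN replicate 3 or siHAND2 replicate 2). Adjusted p over these fits went from 0.00885 to 0.145, and the value without siMYCN replicate 1 was 0.27. The knockdowns differed by 0.10 (95% interval -0.14 to 0.35, adjusted p = 0.551).

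C1R and C1S encode the paired serine proteases of the first component and lie side by side on chromosome 12. C1R (7080214 to 7092540, minus strand) overlaps the row of its relative C1RL on the same strand, so reads of the pair may not be fully told apart. Control libraries had 0.978, 1.31 and 1.14 CPM of C1R. Those with siMYCN had 0.967, 1.11 and 0.994 CPM, and those with siHAND2 1.97, 1.79 and 0.992 CPM. Replicates 1 and 2 of siHAND2 stood above every other library, and replicate 3 lay within the siCTR range. In limma the differences from siCTR were -0.08 with siMYCN (adjusted p = 0.713) and 0.25 with siHAND2 (95% interval -0.06 to 0.56, adjusted p = 0.212). Without siHAND2 replicate 3 the siHAND2 value was 0.43 and passed the test (adjusted p = 0.0246, with 0.0246 to 0.543 over all alternatives). The comparison of the knockdowns gave 0.33 (adjusted p = 0.106), and 0.51 without that library (adjusted p = 0.0108, with 0.0108 to 0.322 over all alternatives).

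C1S (6988259 to 7071032, plus strand) was close to undetected. Its row overlaps those of EMG1 on the same strand and LPCAT3 on the other. Whether this overlap affected its count was not tested. C1S had 2, 1 and 0 reads in the siCTR libraries, 1, 1 and 1 in siMYCN and 1, 2 and 1 in siHAND2. All 9 values lie under 3 reads, the limit that a count of 0 allows (0.0917 to 0.142 CPM, counting error only), so no fold was computed and C1S was not tested. C1R had 24.0 to 60.0 reads per library.

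Of the 7 matched members, 6 reached 1 CPM in 3 or more libraries and were tested. C1R passed with libraries of all 3 groups, and SERPING1 was above 1 CPM in all 9. Leaving out C7, 2 of the 5 tested members rose in siMYCN (CD59 and SERPING1), 1 fell (CD55) and 2 did not pass, where 35.9% of all tested genes were called (24.5% higher and 11.4% lower). In siHAND2, 1 rose (SERPING1), 1 fell (CD55) and 3 did not pass, with 29.9% of all genes called (18.1% higher and 11.8% lower). Between the knockdowns, CD55 and CD59 were lower in siHAND2 and 3 did not pass, with 26.9% of all genes called (11.4% higher and 15.5% lower). Libraries did not overlap for 3 of the 5 in each comparison with siCTR (2 higher, 1 lower). Over all genes this share was 49.5% in siMYCN (33.4% higher, 16.1% lower) and 42.4% in siHAND2 (25.8% higher, 16.6% lower). Between the knockdowns it held for 2 of the 5, both lower, against 38.7% of all genes (17.1% higher, 21.6% lower). The median log2 difference of the 5 was 0.03 in siMYCN (0.06 over all tested genes) and 0.13 in siHAND2 (0.04 over all). With counts this small the shares describe the genes named and no more. Both comparisons use the same siCTR libraries. Among all called genes, 68.3% were higher in siMYCN, a share that was 51.2% under median-ratio rescaling and 49.3% under quantile normalization. For siHAND2 the shares were 60.6%, 47.1% and 47.8%, and between the knockdowns 42.4%, 49.6% and 51.9%.

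To set levels of different genes side by side, mean CPM was divided by transcript length (MANE Select, or the longest protein-coding transcript for C1R). In siCTR the order of CPM per kilobase was CD59 (13.7 ± 0.148), CD46 (12.6 ± 0.574), CD55 (5.48 ± 0.212), C7 (0.838 ± 0.144), SERPING1 (0.584 ± 0.0557), C1R (0.541 ± 0.0786) and C1S (0.0123 ± 0.0115; SD, n = 3 each). SERPING1 and C1R overlapped between libraries, and the other neighbours in this order did not. The membrane regulators thus had the highest levels per length in control cells. In siHAND2, C7 (3.75 ± 0.405 CPM per kilobase) stood above CD55 (3.18 ± 0.314) on average, and their libraries overlapped, as did those of CD59 and CD46 and those of SERPING1 and C1R. In siMYCN C7 (2.27 ± 0.131) was below CD55 (3.89 ± 0.132), with no overlap. The isoform in use was not measured, so these levels depend on the transcript chosen.

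Markers of fibroblasts, which also make complement proteins, differed between the groups as well. Of 10 fibroblast markers 7 were tested, of which 6 rose in siMYCN and PDGFRB did not pass (limma, 0.14, adjusted p = 0.0913), where 24.5% of all tested genes rose. In siHAND2 6 rose and THY1 fell by 0.20 (adjusted p = 0.0270), where 18.1% of all tested genes rose and 11.8% fell. Their summed level was 288 to 292 CPM in siCTR, 347 to 349.5 CPM in siMYCN and 621 to 703 CPM in siHAND2. Most of the sum was PDGFRA, which averaged 121, 144 and 341 CPM in siCTR, siMYCN and siHAND2. In the same order the matrix genes averaged 9.15, 17.2 and 54.7 CPM for LUM and 1.66, 4.42 and 15.9 CPM for COL1A2. The matrix gene DCN averaged 0.431, 1.30 and 11.02 CPM and reached 1 CPM in the knockdown libraries alone. DCN was thus tested only because of the groups where it is high. Its place among the 6 that rose in each knockdown is no support for the list. COL3A1 averaged 1.42, 4.19 and 3.84 CPM, and the knockdowns did not differ past the threshold (-0.10, adjusted p = 0.525). The markers COL1A1 and POSTN were under 1 CPM in all 9 libraries and were not tested. COL1A1 went the other way from COL1A2, averaging 0.720, 0.507 and 0.363 CPM in siCTR, siMYCN and siHAND2. POSTN had 8 to 15 reads per siHAND2 library and 0 or 1 read in each of the others. The part of the fibroblast and neuroblastoma markers in the C7, SERPING1 and C1R values was not tested.

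A further list of 53 complement genes gave 21 matched rows, of which 10 were expressed highly enough to test. In siMYCN 2 rose, 2 fell and 6 did not pass, against the 35.9% of all genes called. In siHAND2 1 rose, 1 fell and 8 did not pass, against 29.9%. The median log2 difference was 0.15 in siMYCN (0.06 over all tested genes) and 0.19 in siHAND2 (0.04 over all). C4B reached 1 CPM in 3 libraries, all of them knockdown libraries, and was tested only through those. Its values are part of both medians, which are therefore no support for the list. Without siHAND2 replicate 1 the siHAND2 count was 4 (3 higher, 1 lower).

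CLU encodes clusterin, a secreted chaperone that binds the terminal complex in fluid. Control libraries had 11.6, 13.3 and 11.1 CPM of CLU. After siMYCN the values were 21.7, 21.7 and 22.8 CPM, and after siHAND2 they were 16.6, 15.0 and 13.9 CPM, with no overlap between groups. In limma, CLU rose by 0.83 with siMYCN (adjusted p = 7.72e-07) and by 0.32 with siHAND2 (adjusted p = 0.00546), and siHAND2 was below siMYCN by -0.52 (adjusted p = 9.16e-05). The order of the knockdowns was the reverse of that seen for C7.

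SUSD4, a membrane protein that inhibits complement activation, had 2.93, 3.59 and 3.18 CPM in control libraries. After siMYCN the values were 1.33, 1.57 and 1.71 CPM, and after siHAND2 they were 2.80, 3.11 and 3.61 CPM. Only the siMYCN libraries stood apart. In limma SUSD4 fell by 0.74 with siMYCN (adjusted p = 0.000108) and differed by -0.024 with siHAND2 (95% interval -0.26 to 0.22, adjusted p = 0.897). The direct comparison gave 0.72 (adjusted p = 0.000163), higher in siHAND2 in 3 of 3 libraries.

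C1QBP, a mainly mitochondrial protein first isolated as a binder of C1q, fell in both knockdowns, from 183 ± 2.88 to 138 ± 2.29 CPM in siMYCN (-0.40, limma, adjusted p = 3.17e-06) and 148 ± 7.50 CPM in siHAND2 (-0.30, adjusted p = 5.31e-05; SD, n = 3). The complement inhibitor gene CSMD1 rose from 1.08 ± 0.331 to 1.81 ± 0.0733 CPM in siMYCN (0.45, adjusted p = 0.0203). That call was lost without siCTR replicate 3 (0.31) or siMYCN replicate 1 (0.43), and the siHAND2 value was 0.32 (adjusted p = 0.0920). Without siHAND2 replicate 1 that value was 0.44 and passed the test.

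The component genes C5, C4A, C4B, CFB, MASP2 and COLEC11 did not pass the test in either knockdown. C5, which yields the first protein of the pore, measured 11.3 ± 1.01, 12.4 ± 1.48 and 13.2 ± 1.23 CPM in siCTR, siMYCN and siHAND2 (SD, n = 3). C4A and C4B are near-identical copies, so the values of each copy are uncertain. Of the terminal pathway, values are thus given for C5 and C7, and C6, C8A, C8B, C8G and C9 were not analysed here. The same holds for CR1, CR2, C4BPA and C4BPB, regulator genes of the chromosome 1 cluster that holds CD46 and CD55.

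**Figure D3:**
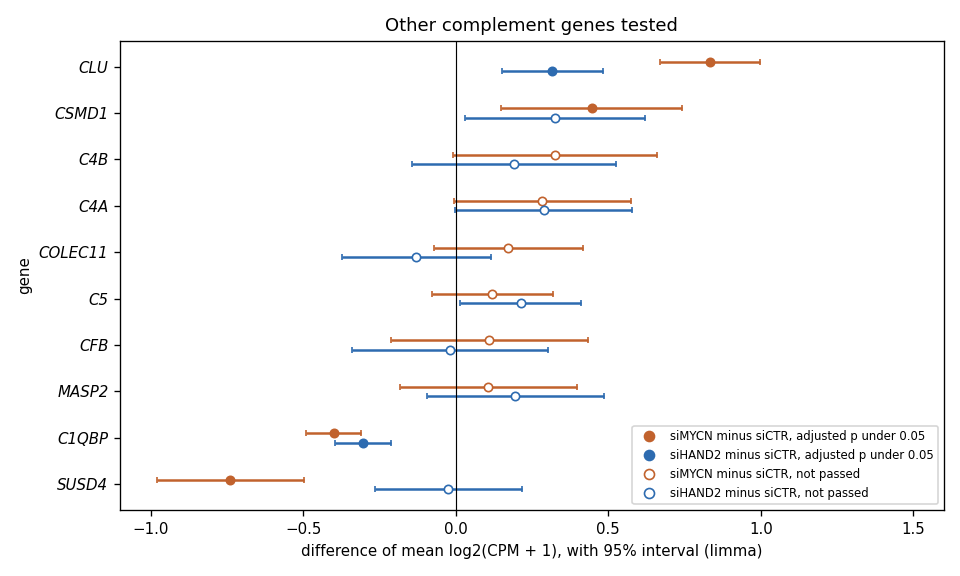
Difference of mean log2(CPM + 1) from siCTR (horizontal axis, 95% intervals from limma) for the 10 tested genes of the further complement list; filled circles passed an adjusted p of 0.05. CLU is higher in both knockdowns, C1QBP lower in both, and SUSD4 is lower in siMYCN while its siHAND2 value is -0.024.

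To describe which genes followed C7 most closely, its log2(CPM + 1) was correlated over the 9 libraries with those of 172 genes that averaged at least 5 CPM and spanned at least 1 on the log2 scale between group means. The highest Pearson correlations belonged to DKK2 (0.986), SCUBE1 (0.983), APBA1 (0.974), SCN9A (0.970) and DKK1 (0.969). The libraries fall into 3 groups, so these values mostly describe the order of the groups, and the genes share depth and controls. By Spearman correlation 2 of the 5 stayed among the first 5 and 4 among the first 20. DKK2 averaged 65.7 ± 2.37, 112 ± 5.94 and 164 ± 9.82 CPM in the siCTR, siMYCN and siHAND2 libraries (SD, n = 3). DKK1, which like DKK2 encodes a secreted Wnt modulator, averaged 9.41 ± 1.41, 14.4 ± 1.11 and 22.7 ± 0.837 CPM. SCN9A, a voltage-gated sodium channel gene, went from 22.3 ± 0.986 to 44.6 ± 4.69 and 73.4 ± 5.69 CPM. Relative to their siCTR means, C7 stood highest of the 6 genes in each knockdown library. Its values were 2.53 to 2.83 in siMYCN and 4.12 to 5.02 in siHAND2. C7 was chosen for its rise over siCTR, so this place is in part given by that choice. Among the other tested members the correlation with C7 over the same 9 libraries was -0.972 for CD55, 0.932 for SERPING1, 0.407 for CD59, 0.389 for C1R and 0.376 for CD46. These values too mostly describe the order of the groups. How common such values are among all tested genes was not examined, and a link of any member to C7 was not tested.

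**Figure D4:**
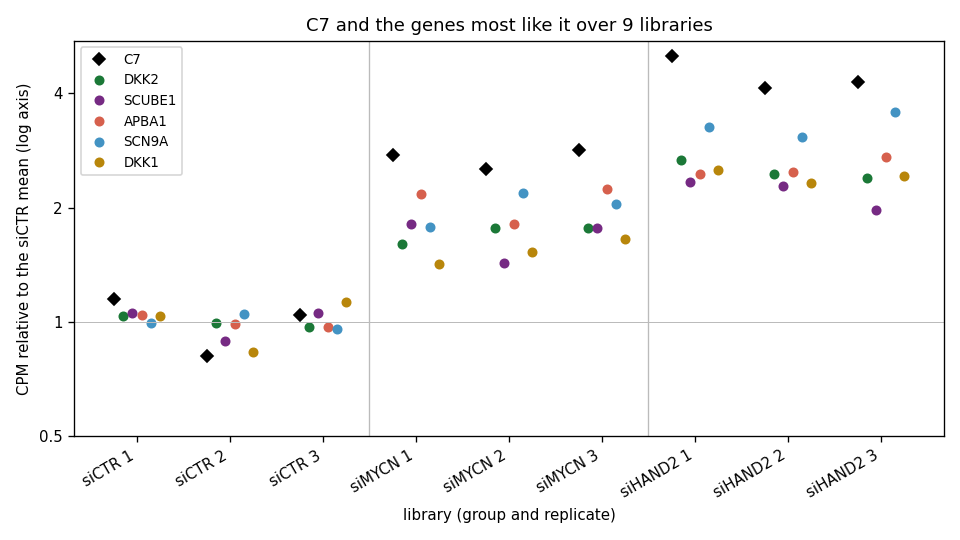
CPM of C7 (diamonds) and the 5 genes most like it (circles) in each of the 9 libraries, relative to each gene's siCTR mean (log axis). In every siMYCN and siHAND2 library C7, which was chosen for its rise over siCTR, is the highest of the 6.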

How the data were processed

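RNA-seq of total RNA was measured in 9 LAN5 libraries, 3 per siRNA. The authors deposited CPM values for 25084 genes. Every value holds a constant of 0.0001. Reads were aligned with STAR 2.5.1 and Partek was used, per the submitters' processing notes. The counting rule, strand use and filters are not given in the sources used here. The notes list hg19 and GRCh37, but 8209 of 18215 gene starts equal those of RefSeq GRCh38.p14 and 149 of 18601 those of a GRCh37 annotation, so coordinates are given as GRCh38. Transcript lengths were taken by symbol from the GRCh37 annotation.

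Depth was taken from the smallest step of low CPM values. Of values up to 20 steps, 79.3% to 80.7% were whole within 0.02 of a step. Recovered reads were therefore not used in the main test. Among the fits they entered only the voom alternative named below. The 14495 genes that reached 1 CPM in 3 or more libraries were tested as log2(CPM + 1) with limma 3.58.1 in R 4.3.3 (1 mean per group, all 9 libraries, intensity trend), two-sided, with Benjamini-Hochberg adjustment over all tested genes and a threshold of 0.05. The fit was also run on simulated counts, with the same spread setting for every gene and changes in siMYCN alone. That run does not show how the model performs on these data. Alternatives were other pseudocounts (0.1 and 5), filters (none, 5 CPM), scalings, the groups of a contrast alone, no trend and the replicate block. Further alternatives were voom precision weights from the recovered, partly fractional reads and each library left out. Members and lists were chosen with earlier results of these data known. By rule the text names the members, the further complement genes that passed a test or neighbour a member, the 2 interferon and 2 cytokine genes with the smallest p in a contrast, and the 5 genes most correlated with C7. C5, C4A, C4B, CFB, MASP2, COLEC11 and single marker genes fall outside it and were named after their values were seen.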

Additional observations from a re-analysis of the deposited data

How the results depend on the processing

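The counts of called members stayed within 1.5 times the main count in every alternative fit, as did the counts over all tested genes. Counts of called members include C7. With a filter of 5 CPM the further complement genes called were 2 in siMYCN (4 in the main analysis) and 1 between the knockdowns (2 in the main analysis), since fewer of them were tested. Leaving out 1 library gave 4017 to 5845 called genes in siMYCN, 3079 to 4341 in siHAND2 and 2923 to 3992 between the knockdowns. The called members were then 3 to 4 in siMYCN, 3 to 4 in siHAND2 and 2 to 4 between the knockdowns, and the further complement genes 3 to 5, 2 to 4 and 2 to 3. CD46 in siMYCN (0.033) was -0.024 after median-ratio rescaling, -0.023 after quantile normalization and -0.028 to 0.097 with 1 library left out. SUSD4 in siHAND2 (-0.024) was 0.036 without siCTR replicate 2 and 0.042 without siHAND2 replicate 1, and it ranged from -0.099 to 0.042 with 1 library left out. None of these CD46 or SUSD4 values passed the test, and the cause was not tested. C7 was 0.88 in siMYCN and 1.43 in siHAND2 with a pseudocount of 5 CPM, which is added to both groups. Deviations from the group means of same-numbered libraries correlated between -0.04 and 0.31, with 6 of 9 such pairs over 0.1 against 2 of 18 other pairs, and 7 of 9 libraries correlated best with their own number. This is a hint of pairing, but the labels state none and not every same-numbered pair was over 0.1, so the numbers were not taken to pair the samples. With the replicate block, 5895 genes were called in siMYCN, 5089 in siHAND2 and 4689 between the knockdowns, the called members were 4, 3 and 3, as without it, and the further complement genes 4, 2 and 3 (4, 2 and 2 without it). Depth limits C1R, SERPING1 and C1S most.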

Other observations

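Genes of the interferon response, which is known to raise several complement genes, were listed as background to the members. Of 30 listed genes 15 were tested. In siMYCN 3 rose and 12 did not pass (35.9% of all tested genes were called), and in siHAND2 5 rose, 1 fell and 9 did not pass (29.9% called). The median log2 difference was 0.20 in siMYCN and 0.13 in siHAND2, against 0.06 and 0.04 over all tested genes. STAT2, a signal transducer of type I interferon, rose from 23.6 to 30.6 CPM in siMYCN (0.36, limma, adjusted p = 0.000606), and IRF9, its partner, from 2.47 to 3.71 CPM (0.47, adjusted p = 0.0175). The siMYCN call of IRF9 was lost in 4 of 18 alternative fits, including those without siCTR replicate 3 (0.26) or siMYCN replicate 2 (0.42). IRF9 also rose in siHAND2 (0.46, limma, adjusted p = 0.0231). GBP2, a guanylate-binding protein gene, averaged 0.570 CPM in siCTR and 1.77 CPM in siHAND2 (0.82, adjusted p = 0.000381). It reached 1 CPM in the 3 siHAND2 libraries alone and so was tested only because of the group where it is high. Its place among the 5 is no support for the list, and the medians above include it. In siHAND2 the antiviral gene OAS1 fell from 1.66 to 0.837 CPM (-0.55, adjusted p = 0.0110). The OAS1 call was lost without siCTR replicate 1 (-0.48) or siHAND2 replicate 2 (-0.40). Between the knockdowns OAS1 was lower in siHAND2 (-0.92, limma, adjusted p = 0.000190), and the GBP2 difference was 0.70 (adjusted p = 0.00154). The interferon genes therefore did not move in a single direction in siHAND2.

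Of 25 cytokine and acute-phase signalling genes, 15 were tested. In siMYCN 6 rose and 9 did not pass, and in siHAND2 5 rose, 4 fell and 6 did not pass. Over all tested genes 24.5% rose and 11.4% fell in siMYCN, and 18.1% rose and 11.8% fell in siHAND2. The siMYCN count is near the 35.9% of all genes called there. The medians were 0.15 and 0.04, against 0.06 and 0.04 over all tested genes. JAK1, a kinase of cytokine receptors, averaged 139.8 CPM in siCTR, 209 CPM in siMYCN and 119.6 CPM in siHAND2. It rose by 0.58 in siMYCN (limma, adjusted p = 4.65e-07) and fell in siHAND2 (-0.22, adjusted p = 0.00350). JAK1 was also lower in siHAND2 than in siMYCN (-0.80, adjusted p = 3.90e-09). IFNGR1, a receptor chain for interferon gamma, was also lower in siHAND2 than in siMYCN, at 33.2 against 42.1 CPM (-0.33, adjusted p = 0.000470). It was lower in siHAND2 than in siCTR as well (-0.22, adjusted p = 0.00965). RELB, a subunit of NF-kB, rose by 0.45 in siMYCN (adjusted p = 0.000937) and 0.49 in siHAND2 (adjusted p = 0.000658). LIFR, a receptor of the interleukin-6 family, rose by 0.48 in siHAND2 (adjusted p = 9.60e-05). In siMYCN it rose by 0.23 (adjusted p = 0.0216). These values are given without a link to the complement genes, which was not tested.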
